A study of Mus musculus with 6 samples.

Results

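The genes described here belong to 8 families of developmental transcription factors, Sox, Tbx, Gata, Lhx, Nkx, Irx, Six-class and Pax genes. They were chosen by symbol alone, as protein-coding genes on chromosomes 1 to 19 whose symbol is the family name followed by a number, leaving out Pax2, Pax8, Lhx1, Six2, Tbx18 and Gata3. This gave 71 of 21326 protein-coding genes: 17 Sox, 11 Tbx, 4 Gata, 7 Lhx, 14 Nkx, 6 Irx, 5 Six-class and 7 Pax genes. DNA methylation was measured by MeDIP-seq, in which an antibody pulls down methylated DNA fragments that are then sequenced, and a peak is a stretch where the recovered reads stand above the local background. The samples were mouse primary mesangial cells, the contractile cells that hold the capillaries of the kidney glomerulus together. All 6 samples were grown in 25.5 mM glucose with 20% serum and used between passages 3 and 6. The 3 samples of the second group received 10 ng/ml of TGF-β1, a cytokine that drives fibrosis, for 72 h, and the 3 control samples did not. The study's text calls the replicates biological, but the labels do not say whether they were separate cultures, so each p-value measures the spread between these samples, which may be partly technical.

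The control samples held 10319496, 9407103 and 11494356 reads and the TGF-β1 samples 12748318, 12634300 and 13291419 reads. Every TGF-β1 sample was deeper than every control sample, so in any count of peaks the treatment and the depth cannot be told apart. The lists held 79911, 88428 and 98222 peaks on chromosomes 1 to 19 in control and 99420, 98146 and 103348 after TGF-β1. A region without a peak is a region that did not pass the caller's threshold, which is not the same as a region without methylation. The cells were bulk samples, so weak methylation in all cells and strong methylation in some of them cannot be told apart. The files hold no RNA, so the labelled cell type could be checked only by promoter peaks, which do not show expression. Of 6 mesangial markers, Pdgfrb and Thy1 had a promoter peak in some sample and none had it in all 6. A promoter peak in some sample was found at 2 of 4 podocyte, 3 of 4 endothelial, 0 of 4 tubule and 3 of 4 leukocyte markers, and in all 6 samples at Podxl of podocytes and Csf1r of macrophages.

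Proteins of these families bind DNA through a domain that gives each family its name or class, such as the HMG box of Sox proteins, the T-box of Tbx proteins, the zinc fingers of Gata proteins, the homeodomain of Lhx, Nkx, Irx and Six-class proteins and the paired domain of Pax proteins. They set cell identity in the embryo, and many are silent in most adult cells. Their promoters often lie in CpG islands, stretches rich in the dinucleotide CG that usually stay free of methylation. In silent developmental genes these islands are commonly held by Polycomb complexes, while methylation can gather at the shores beside them.

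The sequences behind the signal at the family genes are shown first, because most methylated cytosine in mammalian DNA stands before a guanine, in CG. Below are 120-base windows of mm9, plus strand, centred on the highest summit of a promoter region of Nkx6-2 (chr7:146769528-146769647) and of Sox9 (chr11:112642124-112642243), both called in all 6 samples, and of regions in Sox13 (chr1:135307289-135307408) and Tbx19 (chr1:167071012-167071131) called only after TGF-β1. The last pair gives the 120 bases before the gene start of Lhx2 and Sox2, which had no peak in any sample, on the strand of the gene, as RefSeq gives them for assembly GRCm38.p6. Capitals mark every CG.
Nkx6-2 promoter region: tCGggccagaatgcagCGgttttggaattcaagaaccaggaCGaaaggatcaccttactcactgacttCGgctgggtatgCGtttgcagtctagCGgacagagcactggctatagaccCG
Sox9 promoter region: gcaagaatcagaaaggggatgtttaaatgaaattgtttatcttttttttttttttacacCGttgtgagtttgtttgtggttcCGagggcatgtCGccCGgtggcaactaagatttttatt
Sox13 intron region: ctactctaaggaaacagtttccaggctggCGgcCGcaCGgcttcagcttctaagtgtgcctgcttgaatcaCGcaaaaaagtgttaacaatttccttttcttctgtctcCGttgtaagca
Tbx19 intron region: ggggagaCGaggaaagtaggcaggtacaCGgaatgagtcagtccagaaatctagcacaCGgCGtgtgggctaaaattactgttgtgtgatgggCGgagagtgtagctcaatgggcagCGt
Lhx2 before the start: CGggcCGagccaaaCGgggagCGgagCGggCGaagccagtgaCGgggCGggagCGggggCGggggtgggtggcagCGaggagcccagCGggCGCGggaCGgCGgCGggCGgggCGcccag
Sox2 before the start: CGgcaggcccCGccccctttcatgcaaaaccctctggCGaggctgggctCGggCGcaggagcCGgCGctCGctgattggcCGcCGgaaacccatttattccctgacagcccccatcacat
The windows under peaks held 7 CG in Nkx6-2, 4 in Sox9, 5 in Sox13 and 6 in Tbx19, and the start windows 19 in Lhx2 and 10 in Sox2. RefSeq promoter entries matched 50 of the 71 genes and 10 of the 15 genes without a peak. Over those 10 genes the start windows held from 1 CG in Lhx8 and 3 in Nkx2-1 to 19 in Lhx2, the highest, so they ranged below and above the windows under peaks.

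Peaks were assigned by their summit to the promoter (2 kb upstream to 500 bp downstream of the annotated gene start), the body (the rest of the gene) or the flank (the rest of 5 kb on either side), and peaks of different samples were merged into a single region where they shared 1 bp or more. The 71 genes held 355 of the 166838 regions of chromosomes 1 to 19. Of these, 21 lay in promoters, 282 in bodies and 52 in flanks. Within bodies, 161 regions had their summit in an intron, 13 in a coding exon, 14 in a 3′ UTR, 1 in a 5′ UTR and 93 in stretches of the gene covered only by transcripts not annotated as protein-coding. No region belonged to 2 of the genes, and 11 also lay in another gene. A region was called in all 6 samples in 78 cases (22%), against 24.5% over all regions, and in 1 sample only in 95 cases (26.8%), against 27.3%.

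Most promoter regions of these genes had their highest summit away from the gene start. Of the 21 promoter regions, found at 19 genes, 18 had it more than 500 bp upstream of the start and 2 within 500 bp. The last, in an intron of Tbx1, lay 512 bp downstream, and the median position was 1184 bp upstream. Most of the promoter, as defined here, lies more than 500 bp upstream. Other genes also had more peaks there, with 56.3, 53 and 49.6 peaks per Mb in the 500 bp bins from 2 kb to 500 bp upstream. Within 500 bp of the start they had 28.1 upstream and 45.2 downstream. The same share of regions was not counted for them. In windows chosen after the data had been seen, the 1 kb centred on the start held 0, 1 and 2 peaks of the 71 genes in control and 1, 0 and 1 after TGF-β1, from 3 genes (4.23%, against 6.64% of the other genes). The counts overlapped between the groups. The density there was 11.7 ± 10.6 peaks per Mb (SD, n = 6), against 36.7 ± 6.35 at the 21255 other genes, 3.12-fold lower, and lower in 6 of 6 samples.

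Between 2500 and 500 bp upstream of the start the order was the other way round. The 71 genes held 14, 14 and 18 peaks in control and 15, 15 and 13 after TGF-β1, from 20 genes (28.2%, against 18.1% of the other genes). The groups overlapped. The density was 104 ± 12.1 peaks per Mb (SD, n = 6), against 52.8 ± 4.79 at other genes, 1.98-fold higher, and higher in 6 of 6 samples. The same regions recur in several samples, and since both windows were chosen after the profile had been seen, no test is given. Single bins of 500 bp rest on 2 to 8 of the genes each, and bins elsewhere departed from other genes as far. From 3000 to 2500 bp upstream the 71 genes had 9.39 peaks per Mb against 55.5, and from 3000 to 3500 bp downstream 122 against 63.9. These bins were not tested, so neither direction is shown to be particular to its place.

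**Figure D1:**
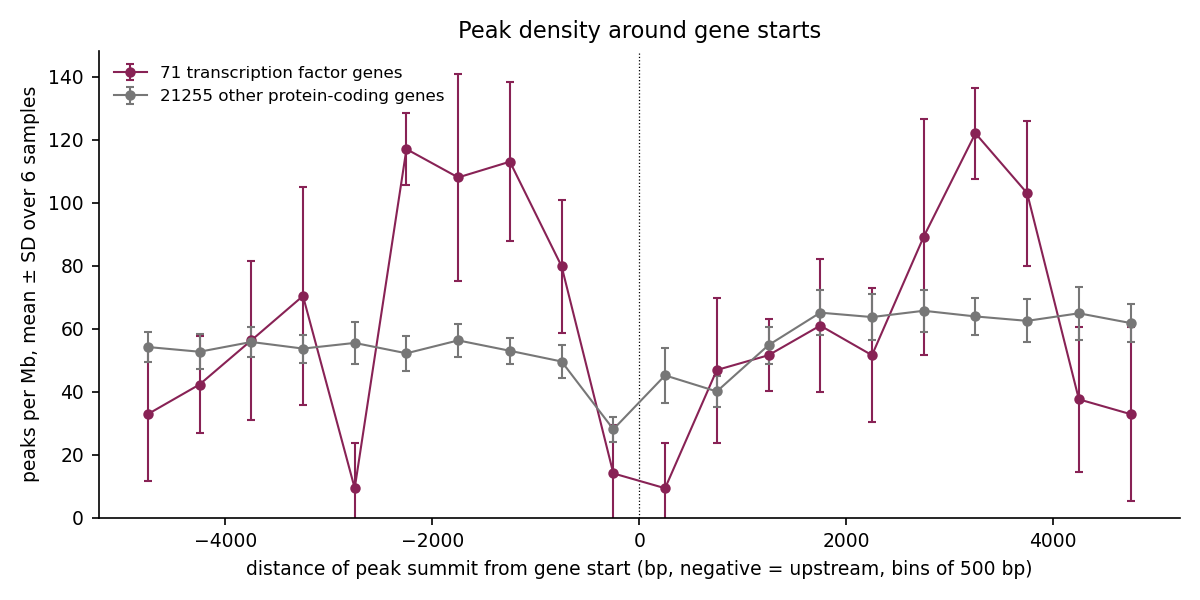
Peak density in peaks per Mb (vertical axis) by distance of the summit from the gene start in bp (horizontal axis) for the 71 family genes and all other protein-coding genes; points are means over 6 samples and bars are SD. The family genes have 11.7 peaks per Mb within 500 bp of the start, against 36.7 at other genes, and 104 against 52.8 between 500 and 2500 bp upstream.

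Over whole elements, with the promoter as defined above, density was 64.8 ± 13.7 peaks per Mb at the 71 promoters and 47.4 ± 4.89 at the others (SD, n = 6), 1.35-fold higher and higher in 6 of 6 samples. The exact two-sided sign-flip p of 0.031, the smallest that 6 samples allow, became 0.0938 after Benjamini-Hochberg adjustment over the 3 elements, so it did not pass 0.05. This test covers the spread between samples and not the choice of genes. With a promoter of 1 kb on either side of the start the log2 ratio turned from 0.43 to -0.24 (exact sign-flip, adjusted p = 0.344), and with promoters at every protein-coding transcript start it was 0.14 (adjusted p = 0.312). Control replicate 3 had the highest promoter density, 90.1 peaks per Mb. Bodies held 55.2 ± 7.57 peaks per Mb against 53.5 ± 5.22 (exact sign-flip p = 0.312), and flanks 49.3 ± 5.45 against 43.3 ± 3.93 (exact sign-flip p = 0.0938, adjusted 0.141).

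The body value rests on Sox5. Without this gene, an alternative chosen after the data had been seen, the bodies of the other 70 genes held 37.1 ± 6.65 peaks per Mb, 1.46-fold fewer than the 53.5 of other genes, and fewer in 6 of 6 samples. Sox5 was left out because of its many peaks and no dense gene was taken from the other set, so no test is given. Over protein-coding transcripts alone, the span of 5 of the genes is shorter, and the log2 ratio of body density was -0.18.

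**Figure D2:**
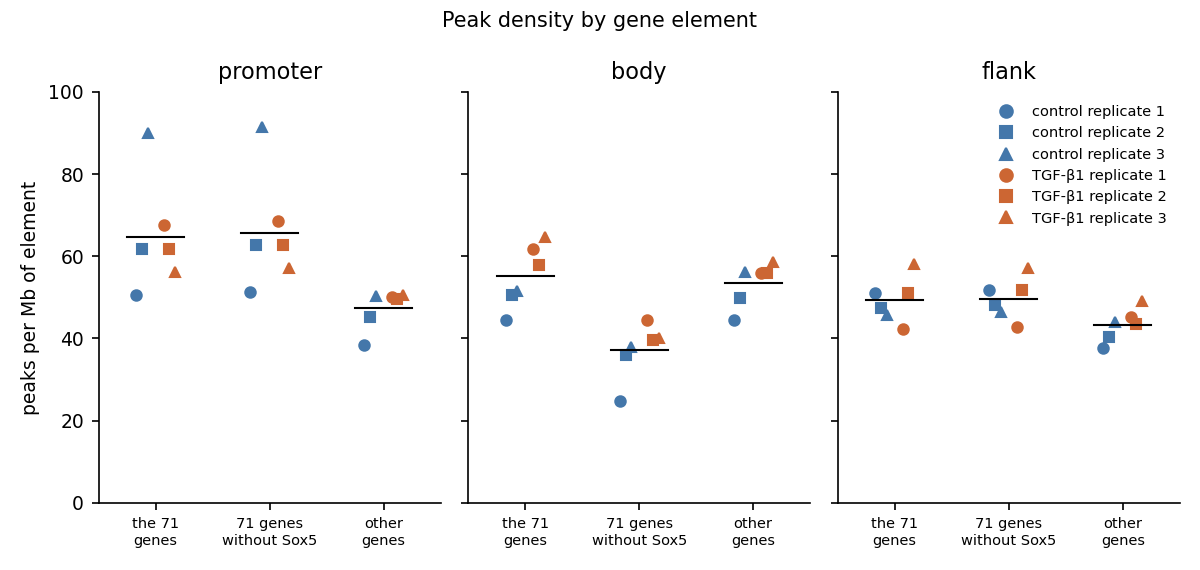
Peak density in peaks per Mb (vertical axis) in promoters, bodies and flanks of the 71 genes, the 71 genes without Sox5 and all other protein-coding genes; points are the 6 samples and lines are their means. Body density is 55.2 with Sox5 and 37.1 without it, against 53.5 at other genes.

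The family genes had more CG in every element than other genes. Their promoters held 3.96 CG per 100 bp against 2.45, their bodies 1.37 against 0.949 and their flanks 1.53 against 0.869. Counted per 1000 CG, promoters had 1.64 ± 0.346 peaks against 1.93 ± 0.199 (SD, n = 6), bodies 4.02 ± 0.551 against 5.64 ± 0.55 and flanks 3.23 ± 0.357 against 4.99 ± 0.452. On this scale each element of the family genes was below that of other genes, a comparison given without a test. A promoter peak was found in some sample at 19 of the 71 genes (26.8%), against 19.6% of other genes. The observed over expected CG of family promoters had a median of 0.507 with a peak and 0.526 without, and of other promoters 0.404 and 0.394. The regions themselves had a median of 2.56 CG per 100 bp, against 2.37 over all regions.

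Peaks were spread unevenly over the genes. Of the 71, 15 had no peak in any sample, 14 had 1 region, 29 had 2 to 4 regions and 13 had 5 or more, and 32 had a region called in all 6 samples. The 15 genes without a peak were Irx1, Irx2, Lhx2, Lhx3, Lhx5, Lhx8, Nkx2-1, Nkx2-3, Nkx2-9, Pax4, Six6, Sox2, Sox14, Sox18 and Tbx3. They include Sox2, which keeps stem cells pluripotent, Nkx2-1, which specifies lung and thyroid, Pax4 of the pancreatic islet, and 4 of the 7 Lhx genes, which specify neurons and forebrain regions. They made up 21.1% of the family genes, against 18.5% of other genes. Among genes under 10 kb 27.9% had none against 37.4%, among genes of 10 to 50 kb 15.8% against 8.67%, and above 50 kb 0 of 9 against 1.98%. Every gene without a peak was under 50 kb.

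**Figure D3:**
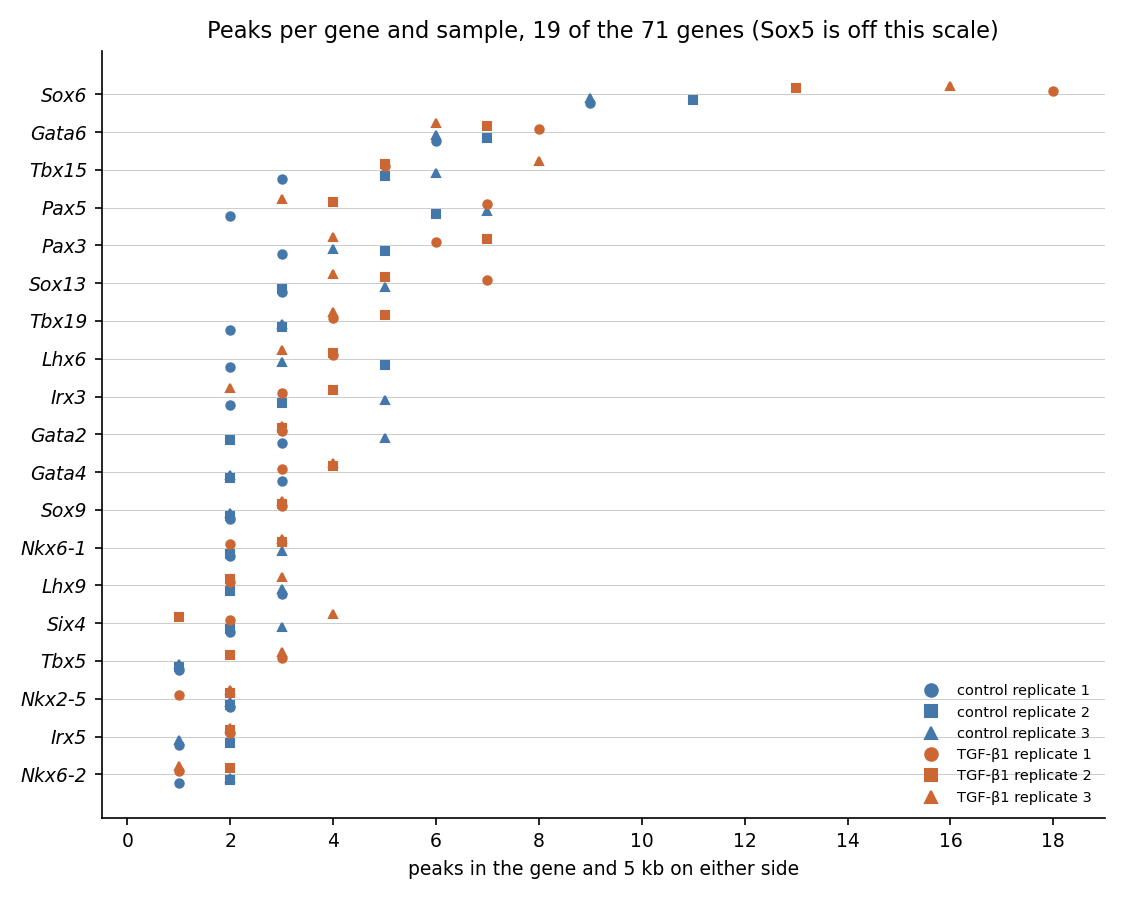
Number of peaks in the gene and 5 kb on either side (horizontal axis) for 19 of the 71 genes, each point a control or TGF-β1 sample. Sox5, with means of 77 and 97 peaks, is off this scale. Sox6 stands highest, with 9 to 11 peaks in control and 13 to 18 after TGF-β1.

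Sox5, which acts with Sox6 and Sox9 in cartilage formation, held 149 of the 355 regions and between 39.7% and 48.5% of the peaks of the 71 genes in each sample. Its annotated span is 954 kb on the minus strand of chromosome 6 (mm9, chr6:143776945-144730497), of which the protein-coding transcripts cover 381 kb and non-coding ones the rest. The coding stretch held 60 regions, 18 of them in all 6 samples, at 100 ± 11.8 peaks per Mb (SD, n = 6). The rest held 88 regions, 22 of them in all 6 samples, at 85 ± 14.3 peaks per Mb. The 2 Mb on each side of the gene were dense as well, with 66.5 to 85.5 peaks per Mb in single samples, against 77.8 to 113 in Sox5 and 29.3 to 38 over chromosome 6. These surroundings held 266, 267 and 300 peaks in control and 309, 309 and 342 after TGF-β1, so they did not overlap between the groups either. The ratio of Sox5 to its surroundings was 1.25, 1.18 and 1.04 in control and 1.24, 1.21 and 1.32 after TGF-β1, which overlapped.

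Sox6, a close relative of Sox5 that also serves muscle and red cell development, spans 567 kb and held 28 regions, of which 3 were called in all 6 samples. Sox13, the third gene of this subgroup, had 3, 3 and 5 peaks in control and 7, 5 and 4 after TGF-β1, which overlapped. Sox9, needed for cartilage, testis and the branching kidney bud, had a region in its promoter (chr11:112641959-112642425, mm9) with a summit 1354 bp upstream of the start. Its pileup, meaning how many extended reads cover the summit, was 24, 21 and 24 in control and 29, 22 and 24 after TGF-β1. The groups overlapped, and after centring each sample on its median the log2 difference was -0.11 (SE 0.211, limma, adjusted p = 0.999).

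Among the Tbx genes, Tbx15, which acts in limb skeleton and skin patterning, had 3, 5 and 6 peaks in control and 5, 5 and 8 after TGF-β1. Its promoter region (chr3:99042940-99043662), 1011 bp upstream of the start, had pileups of 16, 23 and 22 against 22, 29 and 26. This start belongs to a transcript not annotated as protein-coding, and the protein-coding ones begin 13379 bp further on. Both measures overlapped between the groups. Tbx19, which switches on the corticotropin precursor gene in the pituitary, had a promoter region (chr1:167091880-167092300) 1184 bp upstream with pileups of 18, 27 and 25 against 22, 20 and 30, again overlapping. Tbx2, which acts in the heart, and Tbx4, a hindlimb and lung factor, lie 44.5 kb apart on chromosome 11, and each had 0 or 1 peak in every sample.

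Every Gata gene had a peak. Gata6, needed for heart and endoderm, had 6, 7 and 6 peaks in control and 8, 7 and 6 after TGF-β1, in 11 regions of which 4 were called in all 6 samples. Its promoter region, 1907 bp upstream of the start on chromosome 18, had pileups of 45, 22 and 32 in control and 38, 40 and 41 after TGF-β1. Control replicate 1 was the highest of the 6 and control replicate 2 the lowest. Gata4, a partner of Gata6 in the heart, had 3, 2 and 2 peaks against 3, 4 and 4, and its promoter region (chr14:63892123-63892572), 1784 bp upstream, had pileups of 16, 14 and 17 against 15, 15 and 18. Gata2, which maintains blood stem cells, had 3, 2 and 5 against 3, 3 and 3 peaks. Neither of the last pair separated the groups in these values.

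Among the homeodomain genes, Irx3, an Iroquois gene used in nephron patterning, spans 3.13 kb and had the highest density of all 71 genes, 241 peaks per Mb of gene and flanks, with 2, 3 and 5 peaks in control and 3, 4 and 2 after TGF-β1. Its neighbour Irx5, which acts in heart and retina, had 1, 2 and 1 against 2, 2 and 2 peaks, and the groups of both overlapped. The region downstream of Irx5 (chr8:94888672-94889285), 7255 bp past the start, had the highest pileups among the regions of the 71 genes called in all 6 samples. They were 65, 64 and 69 in control and 78, 76 and 81 after TGF-β1. These values did not overlap before scaling, but after centring on each sample's median the log2 difference was 0.03 (SE 0.136, limma).

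Of the Lhx genes, Lhx6, which guides cortical interneurons, had 2, 5 and 3 peaks in control and 4, 4 and 3 after TGF-β1, and Lhx9, needed for gonad formation, 3, 2 and 3 against 2, 2 and 3. An intron 1 region of Lhx9 had pileups of 24, 38 and 63 in control and 42, 42 and 33 after TGF-β1. The control samples held both the lowest and the highest of these. Six4, which acts in muscle and kidney, had 2, 2 and 3 against 2, 1 and 4 peaks, which overlapped, and Six6 of eye and pituitary had none. On chromosome 12, Nkx2-1 and Nkx2-9, 74.5 kb apart, had none either, while Pax9 of thymus and teeth, 78.5 kb from Nkx2-9, had 2, 2 and 3 peaks in control and 2, 2 and 2 after TGF-β1.

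Among Nkx genes, the beta-cell factor Nkx6-1 had 2, 2 and 3 peaks in control and 2, 3 and 3 after TGF-β1, and the heart factor Nkx2-5 had 2, 2 and 2 against 1, 2 and 2. Neither pair of groups was apart. Nkx2-4 and Nkx2-2 form a cluster on chromosome 2, 92.1 kb apart. Each had 0 or 1 peak in every sample, and neither had a region called in all 6. In the Pax family, Pax5, which commits cells to the B lineage, had 2, 6 and 7 against 7, 4 and 3 peaks, and Pax3, which acts in neural crest and muscle precursors, had 3, 5 and 4 against 6, 7 and 4. Both overlapped between the groups.

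The question of the treatment comparison is whether TGF-β1 changed methylation at these genes. The 71 genes held 165, 182 and 189 peaks in control and 212, 205 and 227 after TGF-β1. Every TGF-β1 sample was above every control sample, with means of 179 ± 12.3 and 215 ± 11.2 (SD, n = 3) and a difference of 36 peaks (two-sided exact permutation p = 0.1, below which 3 against 3 samples cannot go). Divided by the reads of each sample, the order was lost, with 17.3 ± 1.82 peaks per 1000000 reads in control and 16.6 ± 0.427 after TGF-β1 (exact permutation p = 0.9). As a percent of all peaks on chromosomes 1 to 19 it was kept, with 0.206, 0.206 and 0.192% in control and 0.213, 0.209 and 0.22% after TGF-β1 and no overlap (exact permutation p = 0.1). Without Sox5, this percent overlapped between the groups.

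By element, bodies held 127, 144 and 147 peaks in control and 176, 165 and 184 after TGF-β1, and these did not overlap (difference 35.7, exact permutation p = 0.1, adjusted 0.3 over the 3 elements). As a percent of all peaks, bodies held 0.159, 0.163 and 0.15% against 0.177, 0.168 and 0.178%, again without overlap. Per 1000000 reads, bodies held 12.3, 15.3 and 12.8 against 13.8, 13.1 and 13.8, which overlapped (exact permutation p = 0.9), and without Sox5 the body percent overlapped as well. Promoters held 9, 11 and 16 against 12, 11 and 10 and flanks 29, 27 and 26 against 24, 29 and 33. Both overlapped between the groups (exact permutation p = 0.9 and 0.8). By family, the Sox genes had 107, 106 and 102 peaks in control and 131, 122 and 144 after TGF-β1, and the Tbx genes 11, 17 and 22 against 23, 23 and 25. In the other 6 families the groups overlapped or touched, as in Gata with 13, 12 and 13 against 14, 14 and 13. Per 1000000 reads the picture was another one. The Sox and Tbx groups overlapped (exact permutation p = 1 and 0.8), and the Gata genes, with 1.26, 1.28 and 1.13 against 1.1, 1.11 and 0.978, and the Nkx genes, with 1.07, 1.17 and 1.22 against 0.706, 0.95 and 1.05, were lower in every TGF-β1 sample (exact permutation p = 0.1 for each). As a percent of all peaks, the Tbx genes stayed apart, with 0.0138, 0.0192 and 0.0224% against 0.0231, 0.0234 and 0.0242% (exact permutation p = 0.1). The Sox, Gata and Nkx groups overlapped on that scale (exact permutation p = 0.3, 0.7 and 0.2).

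**Figure D4:**
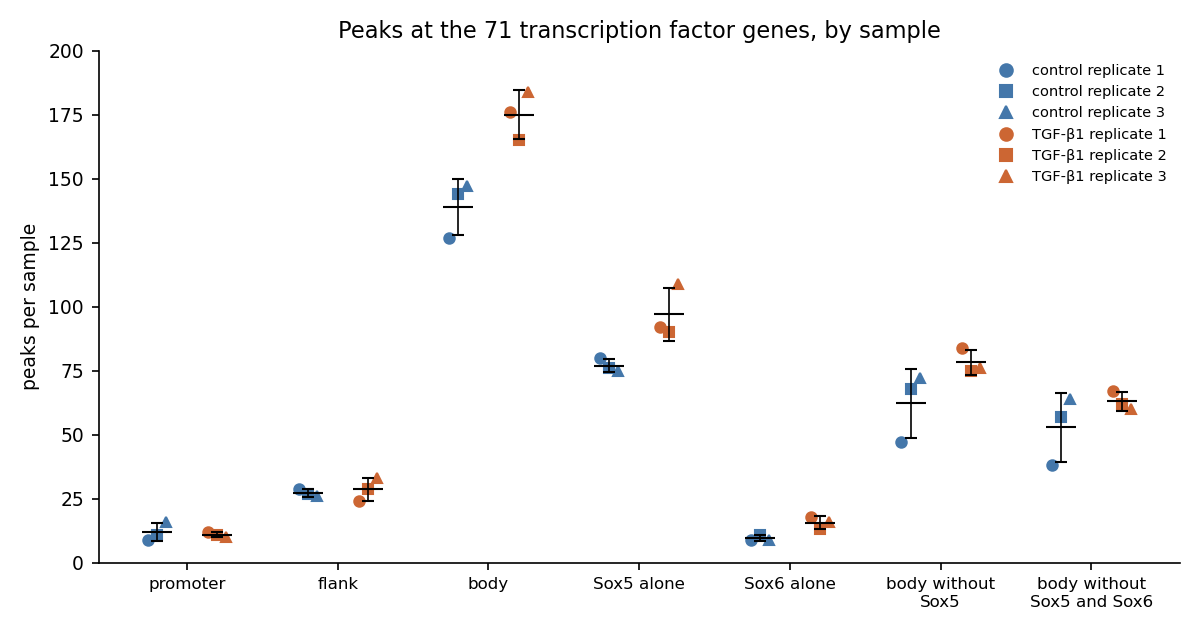
Number of peaks at the 71 genes (vertical axis) in each of the 6 samples, by element, for Sox5 and Sox6 alone and for bodies without them; points are samples and bars are group means with SD. The TGF-β1 samples have 165 to 184 body peaks against 127 to 147 in control, while promoter and flank counts overlap.

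By raw counts, Sox5 and Sox6 made up most of the difference. Sox5 had 80, 76 and 75 peaks in control and 92, 90 and 109 after TGF-β1, and Sox6 9, 11 and 9 against 18, 13 and 16. Sox5 was not apart on the other scales, with 7.45 ± 0.819 against 7.51 ± 0.597 peaks per 1000000 reads (SD, n = 3, exact permutation p = 0.9) and 0.1, 0.0859 and 0.0764% against 0.0925, 0.0917 and 0.105% of all peaks (exact permutation p = 0.4). Sox6 overlapped per 1000000 reads (exact permutation p = 0.2). As a percent of all peaks it stayed apart, with 0.0113, 0.0124 and 0.00916% against 0.0181, 0.0132 and 0.0155% (exact permutation p = 0.1). At a fold enrichment of at least 5, the difference was 14.3 peaks over the 71 genes (exact permutation p = 0.2) and 15.7 in bodies. It was 5.33 at Sox5 (exact permutation p = 0.2) and 5 at Sox6 (exact permutation p = 0.1). Without Sox5 the other 70 genes held 85, 106 and 114 peaks against 120, 115 and 118, with no overlap. Without both, the counts were 76, 95 and 105 against 102, 102 and 102, which overlapped. Both ways of leaving genes out were chosen after the data had been seen.

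Gene by gene, 5 of the 56 genes with a peak had more peaks in every TGF-β1 sample than in any control sample (8.93%, against 3.98% of all protein-coding genes with a peak), and 0 had fewer (against 0.34%). Besides Sox5 and Sox6 these were Sox9, with 2, 2 and 2 against 3, 3 and 3, Tbx5, the heart and forelimb factor, with 1, 1 and 1 against 3, 2 and 3, and Tbx19, with 2, 3 and 3 against 4, 5 and 4. Differences of 1 or 2 peaks per gene are the smallest that can be counted, and no single gene can go below the permutation p of 0.1. Per 1000000 reads, 2 genes (Tbx5 and Sox9) were higher in every TGF-β1 sample and 10 were lower, against 1.85% and 14.8% of all genes with a peak.

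At 6 of the 355 regions a peak was called in all 3 TGF-β1 samples and in no control sample, against 0.946% of all regions, and at 0 in all 3 control samples and no TGF-β1 sample, against 0.233%. All 6 lay in gene bodies and none in a promoter. Bodies held 282 of the 355 regions and promoters 21, so this location is not shown to be particular to the 6. The highest was in intron 1 of Sox13 (chr1:135307211-135307568), whose sequence is given above, with pileups of 27, 26 and 30 after TGF-β1 (27.7 ± 2.08, SD, n = 3). The Tbx19 region in intron 6 (chr1:167070879-167071275), also shown, had 29, 22 and 26.

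The other 4 had lower pileups. In intron 7 of Pax3 (chr1:78110063-78110449) they were 20, 20 and 15, and in intron 7 of Sox6 (chr7:122759429-122759767) 19, 15 and 20. In intron 7 of Tbx5 (chr5:120317424-120317757) they were 17, 14 and 16, and at Sox5 (chr6:144614865-144615511), outside its protein-coding transcripts, 17, 13 and 14. How many reads the control samples held in these regions is not given by the peak lists, so no fold change can be formed for any of the 6. Every TGF-β1 sample was also deeper than every control sample, and the part of depth in these calls was not tested.

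**Figure D5:**
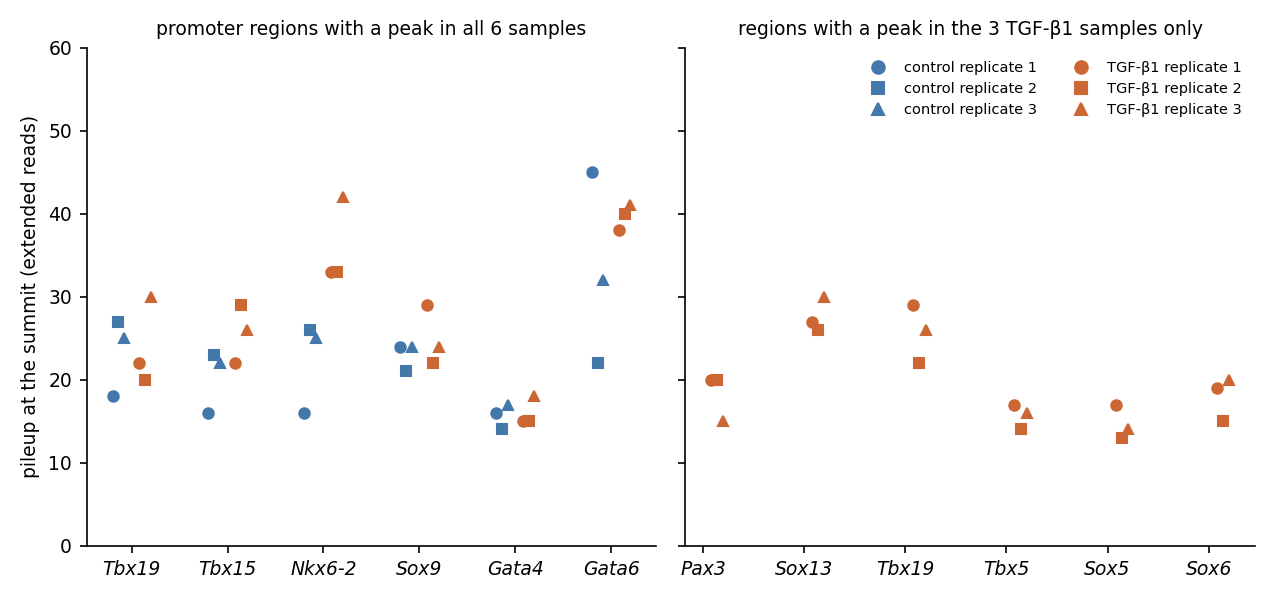
Highest pileup in extended reads (vertical axis) per sample at the 6 promoter regions with a peak in every sample (left) and the 6 regions with a peak in the TGF-β1 samples only (right); points are samples, named by gene. The Nkx6-2 promoter region lies at 16 to 26 in control and 33 to 42 after TGF-β1. It had the smallest p of the 78 regions compared and was not called (limma, adjusted p = 0.999). Pileups are not scaled for depth, and every TGF-β1 sample was deeper than every control sample.

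Where all 6 samples had a peak, pileups could be compared directly. Of the 78 such regions, 0 passed an adjusted p of 0.05 in limma (smallest adjusted p 0.999), and 0 of the 40840 regions tested genome-wide did. At an unadjusted p below 0.05, 1 was higher after TGF-β1 and 1 lower, against 1.95% and 2.19% of all regions tested. The median log2 difference was -0.03, against -0.01 over all regions, and the values ran from -0.45 to 0.49. Of them 34 were positive and 44 negative, against 20082 and 20758 over all regions tested. The median SE was 0.209, and even the largest difference found was not called.

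The region with the smallest p was the promoter region of Nkx6-2 (chr7:146769334-146770172), 892 bp upstream of the start of this regulator of oligodendrocytes. Its pileups were 16, 26 and 25 in control and 33, 33 and 42 after TGF-β1. The groups did not overlap, and the log2 difference after centring was 0.49 (SE 0.21, limma, unadjusted p = 0.0262, adjusted 0.999). Without control replicate 1, the lowest sample, it was 0.30. The number of Nkx6-2 peaks did not follow, with 1, 2 and 2 against 1, 2 and 1.

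Of the other 2 regions with the smallest p among those higher after TGF-β1, 1 was coding exon 7 of Pax3 (chr1:78118061-78118514), with 14, 12 and 23 against 29, 22 and 24, where control replicate 3 lay above the lowest TGF-β1 value (log2 0.44, SE 0.225, limma, adjusted p = 0.999). The other was intron 4 of Sox5 (chr6:143980279-143980725), with 15, 16 and 22 against 34, 21 and 29, which overlapped (log2 0.43, SE 0.221, limma, adjusted p = 0.999). On the lower side, another Sox5 region (chr6:144287372-144288029) had 28, 33 and 34 against 28, 28 and 25. It touched at 28 and had a log2 difference of -0.45 (SE 0.198, limma, unadjusted p = 0.0299, adjusted 0.999). Intron 3 of Irx3 (chr8:94322437-94323539) had 40, 33 and 39 against 31, 37 and 39 (log2 -0.29, SE 0.184), which overlapped. The last of these, again in Sox5, had 25, 24 and 25 against 23, 25 and 23 (log2 -0.28, SE 0.208), which overlapped as well. The Sox5 regions thus lay on both sides.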

How the data were processed

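MeDIP-seq peak lists of 6 samples were used. The authors mapped reads to mm9 with BWA, kept unique reads, counted reads of the same start once and called peaks per sample with MACS2 2.1.0.20150731 at a q cutoff of 0.01 without input. Of the deposited columns, pileup is a signal, the extended reads that cover a summit, with no scaling for depth. Fold enrichment, as deposited, is the ratio of this pileup to the local background. Each peak also has a deposited −log10 p-value and −log10 q-value. Groups came from the sample labels.

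Peaks were joined across samples in Python, with the number of regions checked by bedtools 2.31.1, and assigned to GENCODE vM1 genes. Where gene entries of the same symbol overlapped, the longest was kept. Among the 71 genes this applied to the 2 entries of Sox4. Analysis used Python 3.11.15 and limma 3.58.1 in R 4.3.3 (lmFit, eBayes with trend) on log2 highest pileup, centred on each sample's median, over the 40840 regions called in all 6 samples, with Benjamini-Hochberg adjustment. On data simulated over these regions, limma recovered 94 of 100 regions changed by a log2 of 1 and 100 of 100 changed by 3, and called 10 unchanged ones. The simulation gave every region the same SD of 0.234 on the log2 scale and had no peak threshold. Regions of larger spread were not simulated, so these counts do not give the sensitivity in the real data. Counts were compared by exact permutation over 20 assignments and densities by exact sign-flip tests over 6 samples. Pileups of same-numbered samples did not deviate together (r = -0.0467, 0.0428 and -0.129), so the numbers were not used as pairs.

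The genes, lists and tests were chosen with earlier results of these data known. Genes named are the 2 with most peaks in each family, those with a region of a single group, a promoter region in all 6 samples, no peak, 1 of the 3 smallest limma p in either direction, or a neighbour within 100 kb, and some of them are not reported here. Irx5's and Lhx9's highest regions and the promoter regions called in fewer samples were added after their values were seen. Alternatives were stricter peaks, other spans, scalings and joins, and leaving out each sample.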

Additional observations from a re-analysis of the deposited data

How the results depend on the processing

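Of the results that compare groups or genes, 146 values under alternatives kept direction and side of the threshold, or stayed within 1.5 times for counts. Another 27 moved further, 13 turned direction and 1 came to 0. The remaining 4 came under the threshold, all in settings chosen after the data had been seen, so they do not count as tests. At a fold enrichment of at least 5, the group difference was 14.3 peaks in all, 15.7 in bodies, 0 in promoters and -1.33 in flanks, the log2 density ratio of flanks was -0.0371, 1 of 295 regions was called in control only (against 0.354% of all) and 1 gene, Sox6, was higher in every TGF-β1 sample (against 2.34% of all). Per 1000000 reads, the difference was -0.615 over all elements and -0.427 in flanks, 2 genes were higher and 10 lower, and limma gave 0 higher and 2 lower regions of 78 at unadjusted p below 0.05 (against 0.512% and 5.67% of all), with a median log2 of -0.10 over all regions. Flanks gave -0.667 peaks with 2 kb on either side and -0.00256 as a percent of all peaks. A promoter of 1 kb on either side of the start turned the log2 density ratio to -0.24 (exact sign-flip, adjusted p = 0.344). Alternatives chosen after seeing the data gave log2 density ratios for promoter and body of 0.46 and -0.54 without Sox5, 0.44 and -0.31 without Sox5 and Sox6, and 0.41 and -0.18 over protein-coding transcripts, and -1.64 within 500 bp of the start and 0.98 from 500 to 2500 bp upstream, with no test given for the body or the windows. In the first 3 of these settings the promoter p came under 0.05 by adjustment alone (0.0469, exact sign-flip, unadjusted 0.031 as before). These settings and both windows were chosen after the data had been seen, so no conclusion is drawn from them. With at least 2 more samples of a group, 36 regions leaned to TGF-β1 and 7 to control, against 7.84% and 3.13% of all regions. At unadjusted p below 0.05, limma called 2 of 78 regions higher on fold enrichment (against 2.03% of all) and 6 of the 202 in at least 3 samples (against 2.6%).

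Leaving out each sample gave differences of 29.2 to 41.2 peaks in all, -2.5 to 1 in promoters (1 without control replicate 3), 29.5 to 40.7 in bodies and -0.833 to 3.67 in flanks (-0.833 without TGF-β1 replicate 3). Log2 density ratios against other genes were 0.35 to 0.49 in promoters, 0.02 to 0.07 in bodies and 0.13 to 0.24 in flanks. Regions of a single group numbered 8 to 15 for TGF-β1 (15 without TGF-β1 replicate 2) and 0 to 4 for control (4 without control replicate 1), while the share over all regions also rose, to 1.84% to 2.66% and 0.504% to 1.14%. Limma gave 0 adjusted calls, 0 to 3 higher and 0 to 2 lower of 78 at unadjusted p below 0.05 (against 1.51% to 3% and 1.67% to 2.94% of all). Genes apart numbered 5 to 7 higher and 0 to 1 lower, against 5.84% to 11.1% and 0.784% to 2.3% of all genes with a peak. The log2 difference at Tbx15's promoter was -0.00418 to 0.259 (-0.0027 without control replicate 1, -0.00418 without TGF-β1 replicate 2) and at Gata6's -0.121 to 0.396 (-0.121 without control replicate 2). At the Nkx6-2 promoter it was 0.304 without control replicate 1, at Pax3 exon 7 it was 0.285 without control replicate 2 and in Sox5 intron 4 it was 0.273 without TGF-β1 replicate 1. At the Sox9 promoter it ran from -0.0383 without control replicate 1 to -0.229 without TGF-β1 replicate 1. The cause of these changes was not tested.

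With the replicate number as a block, TGF-β1 samples had 36 more peaks (sign-flip test over 3 pairs, exact p = 0.25, their minimum) and limma gave 0 adjusted calls. It changed no call, and the samples share only a number. The lowest pileup called was 8 to 10 reads, so weaker signal is not in the lists.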

Other observations

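Promoter regions called in fewer than 6 samples were found in 15 cases, 10 of them in 1 or 2 samples. The region of Nkx6-1, 1813 bp upstream of its start, was missed only in control replicate 2, with pileups of 11 and 13 in the other control samples and 14, 16 and 11 after TGF-β1. That of Nkx2-5, 1896 bp upstream, was missed only in control replicate 3, with 16 and 20 in the other control samples and 21, 16 and 25 after TGF-β1. The Sox4 region, 1502 bp upstream of this factor of heart and lymphocyte development, was missed only in control replicate 1, with 20 and 39 against 22, 29 and 15. The Lhx9 region, 603 bp upstream, had 17, 15 and 19 in control and 28 in the third TGF-β1 sample alone. None of these separated the groups by calls in every sample.

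Related genes gave values on the same scale, with no test. The 6 kidney genes left out of the families (Pax2, Pax8, Lhx1, Six2, Tbx18 and Gata3) held 13, 13 and 16 peaks in control and 16, 15 and 14 after TGF-β1, and their promoters 155 ± 34.4 peaks per Mb (SD, n = 6). In this small set, promoter peaks in all 6 samples lay at Tbx18 and Lhx1. The 40 Fox genes, another class of developmental regulators, had 60 peaks per Mb in promoters, 73.9 in bodies and 69.8 in flanks, and 11 of them (27.5%) had no peak. The 39 Hox genes, which pattern the body axis, had 49.9, 82.9 and 52.6, and 9 (23.1%) had no peak. Their body densities lay above the 55.2 of the 71 genes and the 53.5 of other genes.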
